A study of Homo sapiens with 6 samples.

Results

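HMGA2 and 7 related genes of the let-7 and LIN28 circuit, HMGA1, IGF2BP1, IGF2BP2, IGF2BP3, LIN28A, LIN28B and DICER1, were followed in RNA-seq libraries of HGC-27 cells, an undifferentiated human gastric cancer cell line. The 8 genes were picked by symbol from the 58735 genes of the deposited table, and 7 of them reached a mean of 1 FPKM (fragments per kilobase of gene length, scaled to library size) in at least 1 group, as did 13832 genes in all. LIN28A lay under that filter. The genes were proposed with the comparison of the same libraries known, so their own differences are given as a description, with standard errors. No p-value is printed for them. Their calls in the fits over all genes are counted further on, and nothing is read from those counts.

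The study asked how gene expression differs when ACAT2, a cytosolic acetyl-CoA acetyltransferase that opens the sterol synthesis pathway, is depleted. Both groups carried a puromycin vector under the H1 promoter: 3 libraries came from cells given pSIH-H1-Puro-shACAT2 and 3 from cells given pSIH-H1-Puro-shNC, each exposed for 24 h and kept under puromycin for 7 days. The methods name more than 1 hairpin against ACAT2 and describe selected cell populations. They also list empty vectors as the negative controls (shNC and vector), so shNC may carry no hairpin. Which hairpin the shACAT2 libraries carry is not given in the sources used here. A response to ACAT2 loss, to that hairpin or to any expressed hairpin therefore cannot be told apart. ACAT2 was measured at 14.2, 11.7 and 12.7 FPKM in shNC and at 6.19, 5.46 and 6.05 FPKM in shACAT2, a log2 difference of -1.01 (SE 0.10, limma adjusted p = 0.006).

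The fragments assigned to genes came to 14086416 in the smallest library and 16067486 in the largest. The shACAT2-3 library held 7477 genes seen in no other library, against 416 to 657 in the others. The closest pair within a group was shNC-2 with shNC-3 (chi-square per gene 1.75, against 13.7 to 52.3 for the others). Of 8 epithelial markers none reached the filter, their summed level was 0.985 to 1.43 FPKM in shNC and 1.78 to 2.69 FPKM in shACAT2, and TFF1 was listed at 0 throughout. All 6 fibroblast markers reached it (summed level 306 to 340 FPKM in shNC, 443 to 536 FPKM in shACAT2), and COL1A1, DCN and LUM rose (limma adjusted p = 0.014, 0.025 and 0.042). PDGFRA of the same list lay lower in all 3 shACAT2 libraries, at 2.46 ± 0.183 FPKM in shNC and 1.56 ± 0.185 FPKM in shACAT2 (adjusted p = 0.070), and with a block for the replicate number 5 of these 6 markers were called higher and PDGFRA lower. Of 6 immune markers 1 reached it (summed 1.16 to 1.48 against 1.53 to 1.85 FPKM), and of 5 endothelial markers none did (0.013 to 0.037 against 0.062 to 0.569 FPKM). The part of these markers in the values below was not tested. In such bulk libraries, fewer cells that express a gene and less of its RNA per cell cannot be told apart.

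The let-7 microRNAs are small RNAs that pair with matching sites, mostly in 3′ UTRs, and lower the stability and translation of the messages that hold them. They accumulate as cells differentiate, while LIN28A and LIN28B, RNA-binding proteins of embryonic cells, bind let-7 precursors and block their maturation. HMGA2 and the IGF2BP genes are classic let-7 targets that are active in the embryo, and most of them are silent in adult tissues and active again in many tumours, hence the term oncofetal. DICER1 cuts the microRNA precursors to their mature form and is itself a let-7 target.

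A few members of the let-7 family are shown because all 11 mature names of the family in RefSeq carry the same seed. The capitals mark the seed, bases 2 to 8, and the letters are written 5′ to 3′.
hsa-let-7a-5p: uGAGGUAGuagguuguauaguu
hsa-let-7d-5p: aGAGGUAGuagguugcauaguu
hsa-let-7i-5p: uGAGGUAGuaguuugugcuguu
hsa-miR-98-5p: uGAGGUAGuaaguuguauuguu

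Matches to this seed were searched in the transcripts of GENCODE release 29 (GRCh38), on the sense strand only, as CTACCTCA (8mer), CTACCTC without the final A (7mer-m8) and TACCTCA without the leading C (7mer-A1). Of 10738 tested genes with an annotated 3′ UTR, 18.01% held at least 1 such match in their longest 3′ UTR and 4.2% held an 8mer. The 7 matches of HMGA2 are shown because no other of the 8 genes held as many. The capitals mark the match, and each line gives the window and its strand.
HMGA2 8mer, chr12:65963293-65963320, plus strand: ggggcgccaacgttcgatttCTACCTCA
HMGA2 7mer-A1, chr12:65964376-65964405, plus strand: ccatgaaagacctgaataccactTACCTCA
HMGA2 7mer-m8, chr12:65964525-65964554, plus strand: caatatatccccactactcaataCTACCTC
HMGA2 7mer-A1, chr12:65964888-65964917, plus strand: ttaaatattaccctccaagtctgTACCTCA
HMGA2 7mer-m8, chr12:65964937-65964966, plus strand: tggactaattgacttgcaaagacCTACCTC
HMGA2 7mer-m8, chr12:65965790-65965819, plus strand: tgttgtacaatcaaaacacactaCTACCTC
HMGA2 7mer-A1, chr12:65965810-65965839, plus strand: ctactacctcttaagtcccagtaTACCTCA

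All 7 lie in the 3′ UTR of 1 of the 7 coding transcripts of HMGA2, HMGA2-204, whose 3′ UTR has 3003 bases, and the first begins 21 bases after the stop codon. The other 6, among them the one with the longest 3′ UTR of 7421 bases, hold none. The deposited value covers the whole gene, so it does not say which of these transcripts was measured. In the tally over longest 3′ UTRs, HMGA2 therefore counts as a gene without a match.

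For the other genes the matches of the strongest class in each gene are shown, since they differ in number and in class. Of the 2 DICER1 matches, which are of the same class, only 1 is shown. IGF2BP1 held 5 matches, of which 3 were 8mers, LIN28B 5 with 2 8mers, IGF2BP2 2 with 1 8mer, and IGF2BP3 and LIN28A 1 8mer each. HMGA1 held 1 match, a 7mer-m8. DICER1 held 2 7mer-A1 matches in its 3′ UTR and up to 5 matches in its coding sequence, while LIN28B was the only other member with a coding match, 1.
IGF2BP1 8mer, chr17:49051054-49051083, plus strand: gcaatgctgtgtgcgaagtaaaCTACCTCA
IGF2BP1 8mer, chr17:49053691-49053720, plus strand: tgggaaccagcagtgctagtaaCTACCTCA
IGF2BP1 8mer, chr17:49054345-49054374, plus strand: gctacgagtataaatggattaaCTACCTCA
IGF2BP2 8mer, chr3:185644220-185644249, minus strand: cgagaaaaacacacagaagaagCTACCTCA
IGF2BP3 8mer, chr7:23311795-23311824, minus strand: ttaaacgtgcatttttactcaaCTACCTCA
LIN28A 8mer, chr1:26427341-26427370, plus strand: ttggagtgcacagcctattgaaCTACCTCA
LIN28B 8mer, chr6:105078805-105078834, plus strand: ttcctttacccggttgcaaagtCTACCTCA
LIN28B 8mer, chr6:105081414-105081443, plus strand: ttactctgtttacagcaaaaggCTACCTCA
HMGA1 7mer-m8, chr6:34245821-34245850, plus strand: tccatttttcctctgttcacaaaCTACCTC
DICER1 7mer-A1, chr14:95087574-95087603, minus strand: gcattgcacttggtaccatgcttTACCTCA

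The levels of the 8 genes spanned a wide range in FPKM, a measure per length. In shNC the order by mean was HMGA1, IGF2BP1, IGF2BP2, DICER1, IGF2BP3, LIN28B, HMGA2 and LIN28A, and the ranges of neighbours in that order did not overlap. The order was the same in shACAT2. There the ranges of DICER1 (5.14 to 10.2 FPKM) and IGF2BP3 (5.46 to 9.01 FPKM) overlapped, and those of the other neighbours did not. HMGA1 was therefore the abundant HMGA gene and LIN28B the measured LIN28 gene of these cells, while HMGA2 was clearly detected at a low FPKM. The order depends on the length used, which takes all annotated exons of a gene together. For HMGA2 that length is 15403 bases, while its longest transcript has 8094, so FPKM can understate its level. In fragments HMGA2 (489, 633 and 658 in shNC) lay above LIN28B (263, 388 and 456).

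**Figure D1:**
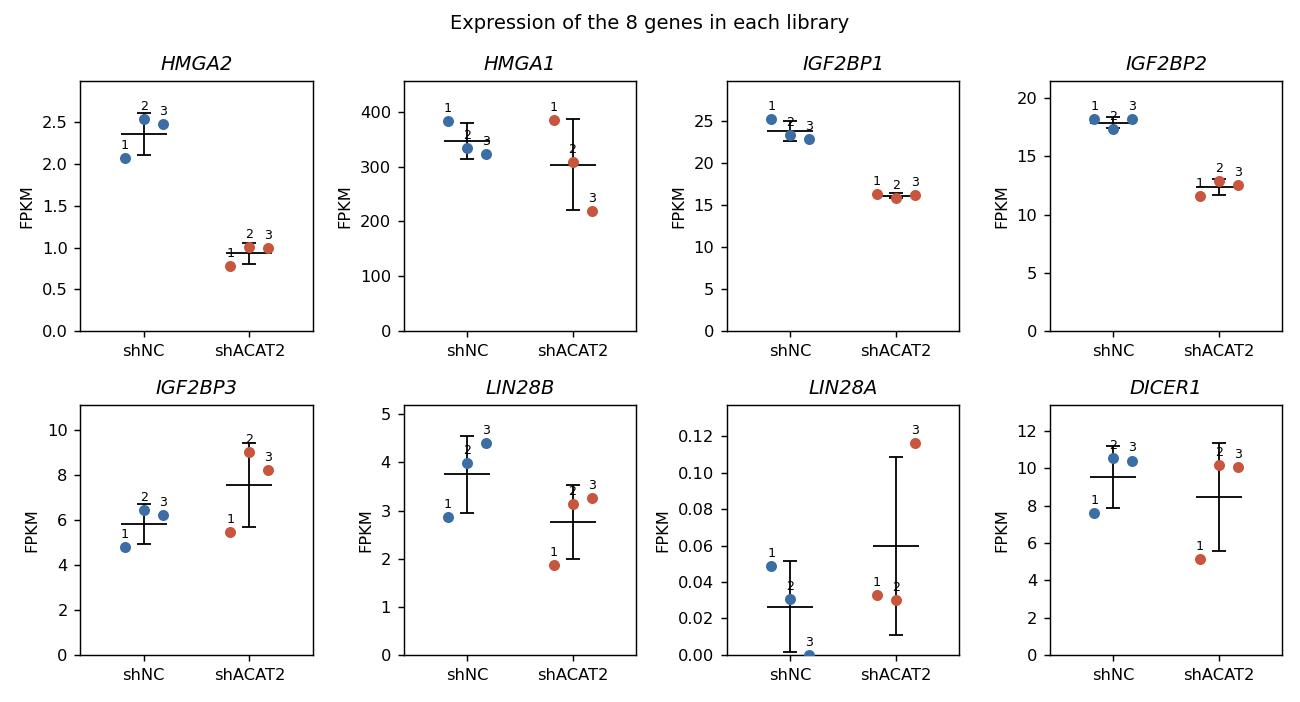
FPKM of each gene in each of the 6 libraries (dots, numbered by replicate), with the mean and SD of each group of 3 libraries (horizontal line and whiskers); each panel has its own axis from 0. HMGA2, IGF2BP1 and IGF2BP2 are lower in all 3 shACAT2 libraries than in any shNC library, and the groups overlap in the other 5 genes.

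HMGA2, an architectural chromatin protein that binds the minor groove of AT-rich DNA (ENSG00000149948, GRCh38 chr12:65824131-65966295, plus strand), was measured at 2.07, 2.53 and 2.48 FPKM in shNC and at 0.783, 1.01 and 0.995 FPKM in shACAT2. All shACAT2 libraries lay below all shNC libraries. The means were 2.36 ± 0.251 and 0.930 ± 0.128 FPKM (SD, n = 3 each), a change of -60.6%. HMGA2 thus passed the filter of 1 FPKM through shNC alone. On the log2(FPKM + 1) scale, which understates the change of low genes, the difference was -0.80 (SE 0.12, 95% interval -1.08 to -0.52). It rested on 183 to 658 fragments per library. Within the pairs of libraries that share a replicate number, the change was -62.3%, -60.1% and -59.8%, so the 3 pairs lay close together. The labels give only the number and do not say that such libraries were paired. With a pseudocount of 0.1 the log2 difference was -1.26, and with limma-voom on the recovered fragments it was -1.35.

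The opposite-strand gene AC090673.1 shares 384 exon bases with HMGA2 and was measured at 0.066 to 0.365 FPKM. RPSAP52, an antisense pseudogene of the HMGA2 locus, was measured at 0.118 to 0.360 FPKM. Both lay below HMGA2 in every library. Whether reads were counted by strand is not given in the sources used here.

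HMGA1, the paralogue that most dividing cells express (ENSG00000137309, GRCh38 chr6:34236873-34246231, plus strand), was measured at 383, 333 and 323 FPKM in shNC and at 384, 308 and 218 FPKM in shACAT2. The groups overlapped, with shACAT2-1 at the level of shNC-1 and shACAT2-3 the lowest of the 6. The means were 346 ± 32.1 and 303 ± 82.9 FPKM, a log2 difference of -0.23 (SE 0.21, 95% interval -0.72 to 0.27). Without shACAT2-3 the log2 difference was -0.0076. The paired changes were 0.243%, -7.75% and -32.4%. HMGA2 thus made up 0.685 ± 0.127% of the summed HMGA FPKM in shNC and 0.328 ± 0.125% in shACAT2.

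Copies of HMGA1 that could share its reads were low. The pseudogene HMGA1P8 was measured at 0.611, 1.54 and 1.45 FPKM in shNC and at 0.616, 0.375 and 0.830 FPKM in shACAT2, HMGA1P2 at 0.407 to 1.97 FPKM over the 6 libraries, and HMGA1P3 at 0.179 to 1.03 FPKM. SMIM29, a neighbour of HMGA1, was measured at 4.22 to 4.29 FPKM in shNC and 4.78 to 5.79 FPKM in shACAT2. Of the 4 tested genes of the antisense and pseudogene list, limma called 0, with 1 at an unadjusted p under 0.05 (SMIM29), and limma-voom called 0.

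The IGF2BP proteins bind messenger RNAs, many of them with N6-methyladenosine (m6A), and stabilise them or guide their transport and translation. IGF2BP1 (ENSG00000159217, GRCh38 chr17:48997412-49055650, plus strand) was measured at 25.2, 23.4 and 22.9 FPKM in shNC and at 16.3, 15.8 and 16.2 FPKM in shACAT2. The groups were far apart and each was narrow. The means were 23.8 ± 1.23 and 16.1 ± 0.276 FPKM, a change of -32.3% and a log2 difference of -0.53 (SE 0.09, 95% interval -0.75 to -0.32) on 2214 to 3591 fragments per library. AC091133.2 and AC091133.3 share 37 and 76 exon bases with it on the opposite strand, and were at 0.562 to 1.63 and 0.152 to 1.48 FPKM.

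IGF2BP2, which differs from its paralogues in being expressed in many adult tissues (ENSG00000073792, GRCh38 chr3:185643739-185825056, minus strand), was measured at 18.2, 17.3 and 18.2 FPKM in shNC and at 11.6, 12.9 and 12.5 FPKM in shACAT2. These groups did not overlap either. The means were 17.9 ± 0.480 and 12.3 ± 0.686 FPKM, a change of -31.1% and a log2 difference of -0.50 (SE 0.09, 95% interval -0.72 to -0.29).

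IGF2BP3 (ENSG00000136231, GRCh38 chr7:23310209-23470467, minus strand) was measured at 4.78, 6.44 and 6.21 FPKM in shNC and at 5.46, 9.01 and 8.19 FPKM in shACAT2. The groups overlapped, since shACAT2-1 lay inside the shNC range. The means were 5.81 ± 0.897 and 7.56 ± 1.86 FPKM, and the log2 difference was 0.31 (SE 0.19, 95% interval -0.13 to 0.75). Of the 7 tested members it alone had a positive difference, and within the 3 pairs the change was 14.2%, 40.1% and 31.8%. IGF2BP3 shares 1521 exon bases with MALSU1 on the opposite strand, itself at 12.8 to 15 FPKM in shNC and 13.2 to 19.4 FPKM in shACAT2, so its level is uncertain if the counting ignored strand.

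The makeup of the family moved with these values. IGF2BP3 held 9.93%, 13.6% and 13.2% of the summed IGF2BP FPKM in shNC and 16.4%, 23.9% and 22.2% in shACAT2. These shares did not overlap, although the FPKM of IGF2BP3 itself did, since a share also carries the falls of IGF2BP1 and IGF2BP2. The limit from the bases shared with MALSU1 holds for the shares as well. The mean share was 12.2 ± 2.02% in shNC and 20.8 ± 3.95% in shACAT2. IGF2BP1 held 50.1 ± 2.04% and 44.9 ± 3.64%, and IGF2BP2 37.6 ± 0.850% and 34.3 ± 0.381%. The IGF2BP1 shares overlapped, with 48.4% in shNC-3 and 49.0% in shACAT2-1. The summed level of the 3 genes was 47.5 ± 0.552 FPKM in shNC and 36.0 ± 2.31 FPKM in shACAT2.

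**Figure D2:**
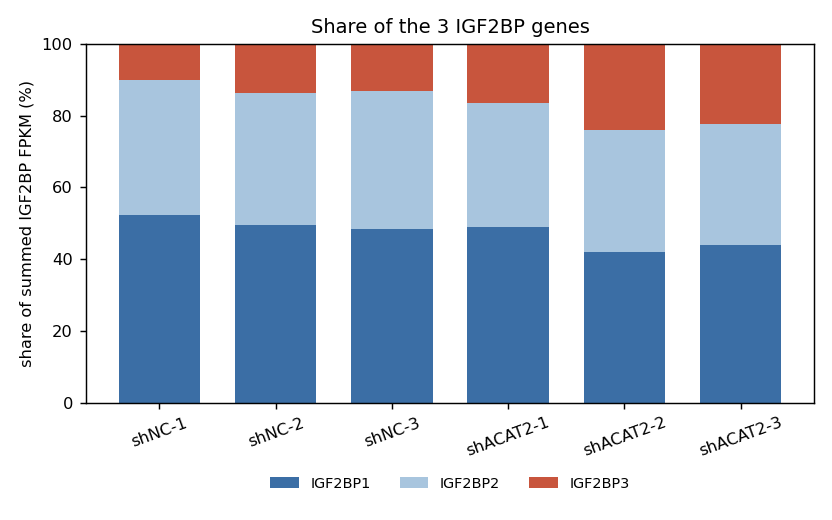
Share (%) of IGF2BP1, IGF2BP2 and IGF2BP3 in the summed FPKM of the 3 genes, 1 bar per library. The IGF2BP3 segment covers 9.93% to 13.6% in shNC and 16.4% to 23.9% in shACAT2.

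LIN28B, the LIN28 protein most often found in tumours (ENSG00000187772, GRCh38 chr6:104936616-105083332, plus strand), was measured at 2.86, 3.99 and 4.41 FPKM in shNC and at 1.88, 3.14 and 3.26 FPKM in shACAT2. The groups overlapped because shNC-1 lay below the upper 2 shACAT2 libraries. The means were 3.75 ± 0.798 and 2.76 ± 0.767 FPKM, a log2 difference of -0.35 (SE 0.19, 95% interval -0.81 to 0.11). Within the pairs the change was -34.5%, -21.3% and -25.9%, that is, lower in all 3. LIN28B-AS1 shares 67 exon bases with it on the opposite strand and was at 0 to 0.126 FPKM.

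LIN28A, the paralogue of pluripotent cells (ENSG00000131914, GRCh38 chr1:26410778-26429722, plus strand), was at the limit of detection, with 3, 2 and 0 fragments in shNC and 2, 2 and 7 fragments in shACAT2. The 0 fragments in shNC-3 allow a level of up to 0.0434 FPKM, a limit that covers counting error only. The highest count was in shACAT2-3, the library with the many genes seen nowhere else. A difference between the groups was not detectable at this depth.

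DICER1, the ribonuclease that releases mature microRNAs from their hairpins (ENSG00000100697, GRCh38 chr14:95086228-95158010, minus strand), was measured at 7.62, 10.5 and 10.4 FPKM in shNC and at 5.14, 10.2 and 10.1 FPKM in shACAT2. Both libraries numbered 1 were low, and the other 4 lay within a narrow band. The means were 9.53 ± 1.65 and 8.48 ± 2.89 FPKM, a log2 difference of -0.19 (SE 0.25, 95% interval -0.79 to 0.41). Without shACAT2-1 the log2 difference was 0.096, on the other side of 0. DICER1-AS1, which shares 80 exon bases with it on the opposite strand, was at 0.860 to 1.22 FPKM.

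Over all genes tested, limma called 706 of 13832 at an adjusted p under 0.05 (5.1%), 250 lower (1.81%) and 456 higher (3.3%) in shACAT2. HMGA2, IGF2BP1 and IGF2BP2 were among those lower, 3 of the 7 tested members, and none was among those higher. The same 3 were the members whose groups did not overlap, against 30.7% of all genes tested that did not overlap, 14.5% lower and 16.2% higher. The study's own rule, an absolute log2 fold change over 1 with an unadjusted p under 0.05, was applied to the limma fit on the log2(FPKM + 1) scale. There 207 genes passed (1.5%) and 0 of the members. The paper's count by this rule is larger and came from its own analysis. HMGA2 passed that rule with a pseudocount of 0.1, where 3.47% of all genes did, and with limma-voom, where 3.51% did. An unadjusted p under 0.05 was given by limma to 3 of the 7 members and to 23.5% of all genes. This contrast was known when the genes were chosen, and HMGA2 passed the filter only through shNC, where it was higher. Nothing is therefore read from these counts.

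The calls depended on single libraries. The number of members called was 0 without shNC-1, without shNC-2, without shNC-3 and without shACAT2-2, 2 without shACAT2-3 (HMGA2 and IGF2BP1, with 547 genes called in all) and 3 without shACAT2-1 (849 genes in all). In each of those 4 fits with 0 calls, 3 members had an unadjusted p under 0.05, while the calls over all genes fell to between 59 and 132. An unadjusted p under 0.05 was given in the same fits to 2721, 2075, 2145 and 2612 of 13832 genes. The members were chosen with this contrast known, so nothing is read from these 3. With a block for the replicate number, 4 members were called, LIN28B being added, while 12.5% of all genes were called.

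**Figure D3:**
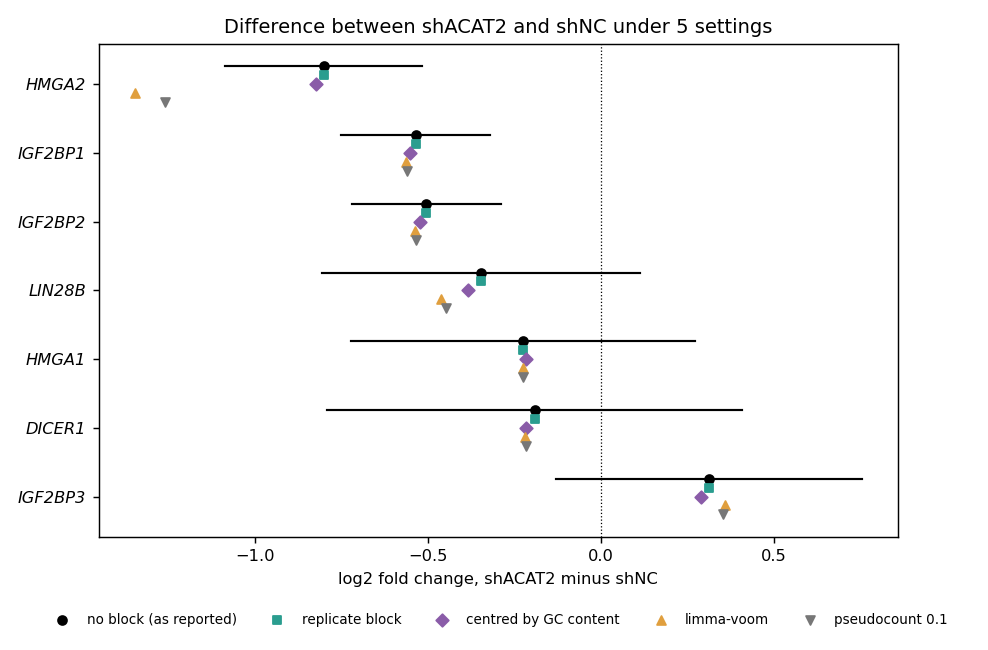
Log2 fold change (shACAT2 minus shNC) of the 7 tested genes under 5 settings, 1 symbol per setting; the black line is the 95% interval of the reported fit of 3 against 3 libraries. HMGA2 has the lowest values, -0.80 to -1.35, and IGF2BP3 alone lies above 0.

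The spread between libraries of 1 group differed among the members, and it is set here beside base composition and gene length. HMGA2 (38.8% GC in its longest transcript), LIN28B (38.1%), DICER1 (39.2%) and IGF2BP3 (40.5%) fell in the lowest of 4 equal bins of GC content of the genes tested, and HMGA1 (61.3%) in the highest. Over all genes of the lowest bin the median deviation from the group mean was -0.14 in shNC-1 and -0.17 in shACAT2-1, against 0.07 to 0.09 in the other 4 libraries. DICER1 deviated by -0.28 and -0.57 in those 2 libraries, LIN28B by -0.28 and -0.36, IGF2BP3 by -0.23 and -0.38, and HMGA2 by -0.13 and -0.11. In the highest bin the medians were 0.12 in shNC-1, 0.26 in shACAT2-1 and -0.24 in shACAT2-3, and HMGA1 deviated by 0.15, 0.38 and -0.43 in the same libraries. The deviations differed with gene length too. In shACAT2-1 the median was 0.159 in the second of 4 length bins, which holds HMGA1. It was -0.086 there in the longest bin, which holds HMGA2, DICER1, IGF2BP3 and IGF2BP1. The parts of base composition and of length in these single values were not tested.

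IGF2BP1 (49.6% GC) and IGF2BP2 (48.7% GC) lay in the third GC bin and deviated by at most 0.083 in any library. Between the groups, the median log2 difference of the 4 GC bins ran from 0.040 in the lowest to -0.0021 in the highest. From the lowest to the highest bin, 0.90%, 1.68%, 2.81% and 1.85% of genes were called lower. The longest length bin, with HMGA2 and IGF2BP1, had a median of -0.057 and 2.72% called lower, against 1.07% to 1.97% in the others. After the log2 values were centred within 10 bins of GC content, the log2 difference was -0.82 for HMGA2, -0.38 for LIN28B, -0.21 for DICER1 and 0.29 for IGF2BP3. LIN28B was then called, where 16.2% of all genes were, and IGF2BP3 when the replicate block was added, where 20.2% were.

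**Figure D4:**
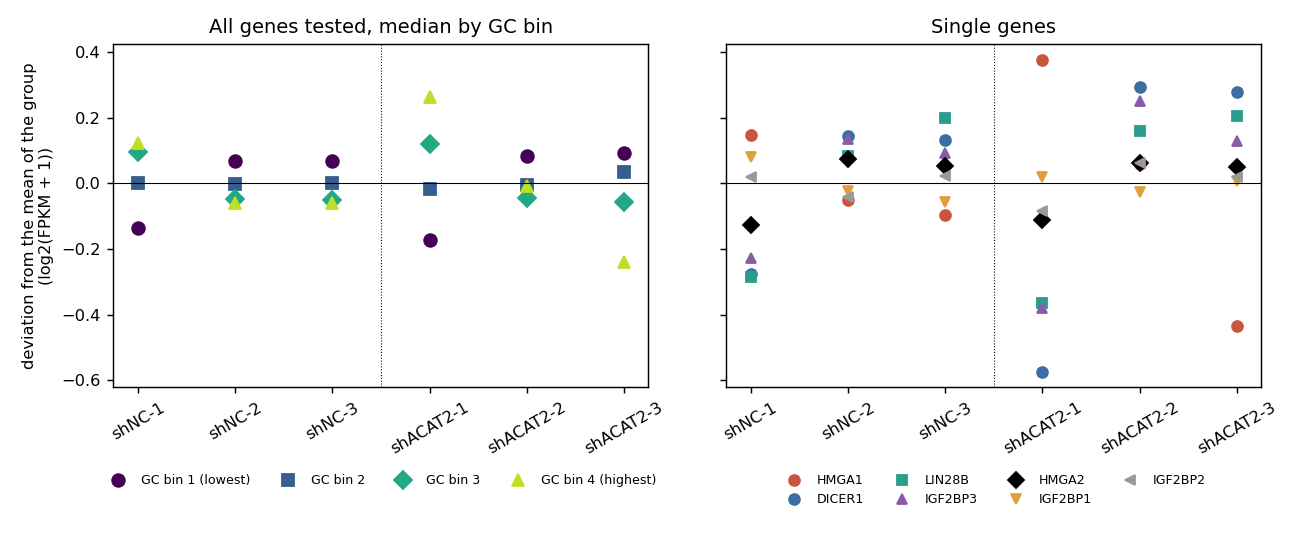
Deviation of each library from the mean of its group in log2(FPKM + 1), as the median over all tested genes of each GC bin (left) and for 7 single genes (right); the dotted line separates shNC from shACAT2. In shNC-1 and shACAT2-1 the lowest GC bin lies at -0.14 and -0.17, and DICER1, LIN28B, IGF2BP3 and HMGA2 lie below 0 there as well.

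The 5 tested genes whose log2 values correlated best with those of HMGA2 over the 6 libraries were ZNF138 (r = 1.000), DSP (0.999), FAM98A (0.995), MFSD14C (0.994) and KLHDC10 (0.994). Most of such a correlation comes from the step between the 2 groups, and no test is given. DSP, which encodes the desmosomal plaque protein desmoplakin, was measured at 3.59, 4.71 and 4.63 FPKM in shNC and at 0.659, 1.13 and 0.951 FPKM in shACAT2. Like HMGA2, it was lowest in library 1 of each group. ZNF138, a zinc finger gene, had means of 4.04 ± 0.284 and 2.42 ± 0.176 FPKM, and KLHDC10, a kelch repeat gene, 14.05 ± 0.792 and 8.20 ± 0.856 FPKM.

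In the fit of all libraries the other let-7 targets were called at about the share of all genes, 3 of 52 beside 5.1%. That count ran from 0 to 15 over the other settings, while the calls over all genes moved as well. The targets were listed with earlier results of these data known, so nothing is read from their count. Of a list of 67 known or predicted let-7 targets without the 8 genes, 52 were tested, 28 with a lower and 24 with a higher value, and their median log2 difference was -0.061, beside 0.016 for all genes tested. E2F2, a transcription factor of S phase entry, fell from 10.5 ± 0.610 to 6.21 ± 0.550 FPKM (log2 difference -0.67, SE 0.10, limma adjusted p = 0.016), and PLAGL2, a zinc finger transcription factor, fell from 14.6 ± 0.633 to 10.0 ± 0.458 FPKM (adjusted p = 0.028). CDKN1A, the cell cycle inhibitor p21, rose from 3.73 ± 0.414 to 7.49 ± 1.73 FPKM (log2 difference 0.83, SE 0.16, adjusted p = 0.034). In each of these 3 genes the groups did not overlap.

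Those 3 calls were lost without shACAT2-2 and without each of shNC-1, shNC-2 and shNC-3 (0 called in each, while 16 of the 52 had an unadjusted p under 0.05 in the limma fit of all libraries, as did 23.5% of all genes), and 5 and 4 were called without shACAT2-1 and shACAT2-3. With the replicate block 11 of the 52 were called, 6 higher and 5 lower, a larger share than the 12.5% of all genes. A match in the 3′ UTR was present in 46 of the 52, whose median was -0.074.

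Over all tested genes with a 3′ UTR, the median log2 difference was 0.045 for the 8804 without a match and -0.0042 for the 1934 with a match. It was -0.0025 for the 451 with at least 1 8mer, -0.11 for the 18 with at least 2 8mers and -0.056 for the 74 with at least 3 matches. The classes with at least 2 8mers and with at least 3 matches both include IGF2BP1 and LIN28B, which were chosen with this contrast known. Their medians without these genes were not computed, so no trend with match number is read from them. All these classes also differed in the median length of their 3′ UTRs, in the same order 1173, 3036.5, 3204, 5277 and 6787.5 bases. Match number and length therefore cannot be told apart here.

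The genes of the microRNA pathway and the let-7 loci gave no call in the fit of all libraries. Of 26 tested processing genes limma called 0, with 8 at an unadjusted p under 0.05, beside 23.5% of all genes, and limma-voom called 0. A lower value was seen in 20 of the 26, and in 6598 of all 13832 genes tested. The median log2 difference was -0.12, beside 0.016 for all genes tested. With the replicate block 4 were called, beside 12.5% of all genes, and nothing is read from this count. Of these, DDX17, a helicase of the Microprocessor, and the AGO partners TNRC6A and TNRC6B were lower and TENT2, a poly(A) polymerase, was higher. The libraries do not measure mature let-7. Of 7 tested precursor and host genes limma called 0, with 2 at an unadjusted p under 0.05, beside 23.5% of all genes. These 2, MIRLET7D and HUWE1, went in opposite directions. MIRLET7D, a let-7 hairpin gene, was at 16.7 FPKM in shNC and 23.4 FPKM in shACAT2 (log2 difference 0.45, limma adjusted p = 0.18), on 19 to 38 fragments per library. HUWE1, an E3 ubiquitin ligase gene that hosts let-7f-2 and miR-98, was at 46.9 FPKM in shNC and 29.8 FPKM in shACAT2 (log2 difference -0.66, adjusted p = 0.058) and was called with limma-voom, with the block, with the filter of 10 fragments, and without shACAT2-1 or shACAT2-3.

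Genes that work with or downstream of the members were counted in the same way, beside 5.1% of all genes called. Of 20 tested IGF2BP partners and m6A genes, among them ELAVL1, YBX1 and METTL3, limma called 0, with 0 at an unadjusted p under 0.05, limma-voom called 0, and the median log2 difference was 0.0032. Of 11 tested mRNAs known to be bound by IGF2BP proteins, 1 was called. CD44, a cell surface receptor for hyaluronan, rose from 3.42 ± 0.208 to 7.08 ± 0.138 FPKM (log2 difference 0.87, SE 0.08, limma adjusted p = 0.0048), and its call was lost only without shNC-3 among the 6 fits that leave out a library. With the replicate block 2 were called, ACTB being added, beside 12.5% of all genes.

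Of 12 tested genes described as regulated by HMGA2, 9 had a higher and 3 a lower value. SNAI2, a transcriptional repressor of the epithelial-mesenchymal transition, rose from 4.02 ± 0.512 to 6.97 ± 0.320 FPKM (log2 difference 0.67, SE 0.10, limma adjusted p = 0.018), a call that was lost without shNC-2, shNC-3 or shACAT2-2 (0 called in each). With the replicate block SNAI1 was called as well, 2 in all, beside 12.5% of all genes. Of 3 tested other oncofetal genes, TPBG, the trophoblast glycoprotein 5T4, rose from 2.73 ± 0.362 to 5.08 ± 0.631 FPKM (log2 difference 0.70, limma adjusted p = 0.025), and 0 were called without shACAT2-2 or without any single shNC library. MSLN and PEG10 did not pass the test.

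**Figure D5:**
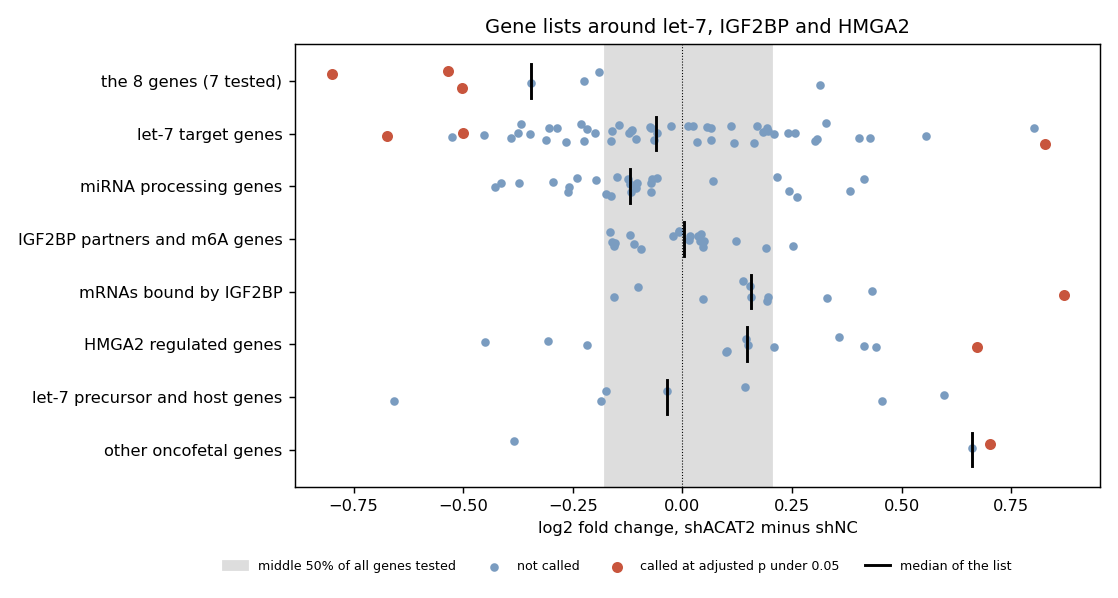
Log2 fold change (shACAT2 minus shNC, 3 libraries each) of the tested genes of each list, with the list median as a black line, called genes in red and the middle 50% of all genes tested as a grey band; vertical scatter within a list has no meaning. The median of the 52 let-7 targets is -0.061 and lies inside the band, as does that of the miRNA processing genes, -0.12.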

How the data were processed

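The authors deposited FPKM values of 58735 genes in 6 libraries of HGC-27 cells, 3 shNC and 3 shACAT2. The submitters' processing notes list HISAT2 2.0.5, featureCounts 1.5.0-p3, DESeq2 1.20.0 and hg38, with no role given, and the strand setting is not given in the sources used here. Groups and replicate numbers came from the sample titles. The libraries are called biological replicates, without naming separate cultures, so p-values measure the spread between these libraries, which may be technical.

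The 8 genes and all lists were chosen with earlier results of these data known. limma 3.58.1 (R 4.3.3, trended eBayes) was fitted to log2(FPKM + 1) of genes whose mean reached 1 FPKM in shNC or in shACAT2, with Benjamini-Hochberg adjustment over all genes tested and calls at an adjusted p under 0.05. Fragments were read back from FPKM and gene length (100% whole within 0.02). The script was tested on simulated data. Same-numbered libraries deviated together (correlations 0.445, 0.126 and 0.171 for numbers 1, 2 and 3), although shNC-2 with shACAT2-3 (0.198) and shNC-3 with shACAT2-2 (0.141) did so to a like degree, and number 1 stood out. All 3 pairs passed 0.1, so the replicate block was fitted as an alternative and is printed where it changed a call. Named genes were all members, genes called in each list (at most 5 per direction), overlapping or copied genes, the 5 genes most like HMGA2, and ACAT2. Other genes were named after their values were seen. These were MALSU1, AC090673.1, RPSAP52, HUWE1, MIRLET7D, the examples of partner genes, the uncalled PDGFRA, MSLN and PEG10, and the genes called only under the block. Of the gene lengths, 58724 equal the exon union of GENCODE release 29. Mature microRNA sequences came from the RefSeq table (GRCh38.p14). Python 3.11.15, pandas 2.3.3 and numpy 2.4.6 were used.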

Additional observations from a re-analysis of the deposited data

How the results depend on the processing

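The direction of the 7 tested members was kept under every alternative except DICER1 without shACAT2 replicate 1 (0.096). Leaving out 1 library at a time, the log2 difference ran from -0.86 to -0.74 for HMGA2, -0.56 to -0.49 for IGF2BP1, -0.54 to -0.46 for IGF2BP2, 0.19 to 0.50 for IGF2BP3, -0.49 to -0.16 for LIN28B, -0.41 to -0.0076 for HMGA1 and -0.34 to 0.096 for DICER1. The calls ran from 59 to 849 over all genes, 0 to 3 for the members, 0 to 5 for the let-7 targets, 0 to 1 for the let-7 precursors and hosts, for the IGF2BP-bound mRNAs, for the HMGA2-regulated genes and for the other oncofetal genes, and stayed at 0 for the processing genes, IGF2BP partners and antisense copies. The cause was not tested.

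Beyond single libraries, HMGA2 was at -1.26 with a pseudocount of 0.1 and -1.35 with limma-voom, and IGF2BP1 at -0.59 with upper-quartile scaling. Let-7 target calls came to 6 with upper-quartile scaling and 6 with total scaling, where 801 and 884 of 13832 genes were called in all. They came to 6 with a filter of 10 fragments in each library, where 1034 of 14394 genes were called. With limma-voom they came to 5, where 1016 of 13832 genes were called. Precursor and host calls came to 1 in the last 2. With no filter, 209 genes were called, with 0 members, 1 let-7 target, 0 HMGA2-regulated and 0 other oncofetal genes. With the mean of shNC-2 and shNC-3 as 1 library, 81 genes were called, with 0 members, 0 let-7 targets, 0 HMGA2-regulated and 0 other oncofetal genes. In both of these fits 3 members had an unadjusted p under 0.05. So did 4140 of 41161 genes with no filter and 2121 of 13832 genes with that mean. The study's rule gave 207 genes and 0 members on the log2(FPKM + 1) scale, 0 let-7 targets, 0 IGF2BP-bound, 0 HMGA2-regulated and 0 other oncofetal genes. With a pseudocount of 0.1 the same rule gave 480 genes and 1 member, HMGA2, and with limma-voom 485 genes and 1 member, HMGA2; both were chosen after seeing the data.

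The replicate block (libraries matched by replicate number) called 1727 genes, 4 members, 11 let-7 targets and 4 processing genes. It also called 1 precursor or host gene, 2 IGF2BP-bound mRNAs and 2 HMGA2-regulated genes. The counts of IGF2BP partners, other oncofetal genes and antisense copies stayed as they were. Centring within 10 bins of GC content, chosen after seeing the data, called 2238 genes, with 14, 4, 1, 2 and 4 in the same lists and 2 other oncofetal genes. With the replicate block as well it called 2793 genes, 5 members, 15, 7, 1, 3 and 3 in those lists, 3 other oncofetal genes and 1 antisense or pseudogene copy. The cause of these shifts was not tested. Of the calls, 64.6% were higher in the reported fit, 54.4% with upper-quartile and 54.9% with total scaling; the median of all genes was 0.016, -0.032 and -0.027.

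Depth limits LIN28A, at 0 to 7 fragments, and the short let-7 hairpin genes.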
